A study of Mus musculus with 2 samples.

Results

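Collagens and laminins are the proteins from which basement membranes, the vitreous and most connective tissue are built, and their genes were followed here across the cell classes of the adult mouse retina. The members were all genes whose symbol is Col or Lam followed by the usual chain numbers, which gave 55 of the 32285 genes in the deposited tables: 44 collagen genes and 11 laminin genes. The retinas came from mice of a B6.Cg strain, aged 14 weeks, that carry the reporter allele Gt(ROSA)26Sortm9(CAG-tdTomato)Hze, in which Cre recombinase switches on tdTomato, and an adeno-associated virus (AAV) had been injected 8 weeks before. Both libraries were made from tdTomato-positive sorted cells and hold unique molecular identifiers (UMIs, counts of single captured transcripts) per gene and droplet barcode. The labels name the libraries Muller and MullerControl, and the first was read as the test group and the second as its control, with 1 library in each. Both groups share the strain, the age, the time since injection and a sort for tdTomato, but the sort differed in yield, with about 4.9% positive and 60000 collected cells for Muller and 10% and 120000 for MullerControl, from each of which 27000 cells were loaded. The cargo of either virus, the promoter that drove it and the number of mice pooled are not given in the sources used here.

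A collagen molecule is a triple helix of 3 chains, and the chain types decide where it goes: fibrillar collagens form fibrils, fibril-associated collagens decorate them, type IV chains form the network of basement membranes, and transmembrane collagens stay on the cell surface. Laminins are trimers of an alpha, a beta and a gamma chain that polymerize on cell surfaces and start the assembly of a basement membrane. In the eye the inner limiting membrane, on which the end feet of Müller glia rest, is a basement membrane, and Bruch's membrane contains basement membranes. Type II collagen with types IX and XI builds the fibrils of the vitreous.

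The Muller library held 12316 barcodes with 25622379 UMIs and the MullerControl library 11309 barcodes with 23549118 UMIs, and 40 barcode sequences occurred in both. Barcodes were kept where 300 genes or more were seen and mitochondrial UMIs made up 20% or less, which held for 11887 and 10404 of them. A kept barcode was given a class when at least 3 markers of 1 cell type were present, their share of its UMIs reached at least 0.3 of the typical share, and the lead over the next marker list was at least 2-fold. That left 15.5% of the kept barcodes of the Muller library and 6.15% of those of the MullerControl library without a class. Of the classes, 6 had at least 50 barcodes in both libraries, given here for the Muller and then the other library, namely Müller glia (895 barcodes and 611), rods (4826 and 6936), cones (358 and 885), bipolar cells (2963 and 922), amacrine cells (871 and 225) and microglia (115 and 166). Every one of the 12 Müller markers had UMIs in the Müller barcodes of both libraries, and together they made up 2.02% and 2.41% of all UMIs there against 0.0738% and 0.0274% in rods.

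Values below are given for the Muller library first and the MullerControl library second, as UMIs scaled to a class total of 1000000 (CPM), with exact Poisson 95% intervals in brackets. The intervals cover counting error only, leave out the variation between cells, mice and injections, and there is no replicate check and no p-value, because each group is 1 library. The libraries were read as 3′ tags, so a CPM is a count of transcripts and not a level per length. Fewer cells of a kind within a class and less RNA per cell cannot be told apart in these sums.

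The kept barcodes held 9218 and 6254 member UMIs. Of the 55 members, 27 had at least 100 UMIs over both libraries and carried 95% of the member UMIs, 14 had 20 to 99, 12 had 1 to 19, and Col10a1 and Col28a1 had none. The count of 0 for those 2 says only that they were not detectable at this depth. By structure, the 9 fibril-associated collagens had 3850 UMIs, the 6 type IV chains 3173, the 11 fibrillar collagens 3022, the 4 transmembrane collagens 2690, the single anchoring-fibril collagen 541, the 2 multiplexins 490, the 7 beaded-filament collagens 481, the 3 short-chain network collagens 178, and Col26a1, placed in none of these, 77. The 5 laminin alpha chains had 359 UMIs, the 3 beta chains 252 and the 3 gamma chains 359.

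The Müller class held the highest summed member level. The summed level was 1570 (1515 to 1627) and 1660 (1601 to 1722) CPM in Müller barcodes, 607 (579 to 636) and 537 (489 to 587) in amacrine barcodes, 171 (163 to 179) and 166 (153 to 180) in bipolar barcodes, and 145 (136 to 155) and 125 (118 to 132) in rods. Microglia had 108 (80.1 to 143) and 120 (98.2 to 146) CPM, and cones had the least, 76.0 (60.3 to 94.5) and 47.3 (40.2 to 55.3). The order of the 6 classes was the same in both libraries, and the intervals of neighbours overlapped only for rods and microglia and, in the Muller library, for microglia and cones. Depth differs between classes, so each barcode was also thinned to 1000 UMIs, which left out barcodes with fewer. These were 247 and 167 of the 895 and 611 Müller barcodes and 2479 and 2136 of the 4826 and 6936 rod barcodes. The Müller and rod shares thus describe the deeper barcodes only. At that depth 77.8% (74.4 to 80.9, exact Clopper-Pearson 95% interval) and 73.2% (68.8 to 77.3) of Müller barcodes had a member UMI, against 45.2% and 39.7% of amacrine, 15.4% and 15.9% of bipolar, 11% and 10.8% of rod, 11.9% and 14.2% of microglial and 6.89% and 5.95% of cone barcodes. Without thinning the Müller shares were 74.3% and 74.5%, at median depths of 1800 and 2067 UMIs, and the rod shares 14.0% and 15.4%, at 962 and 1391.

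**Figure D1:**
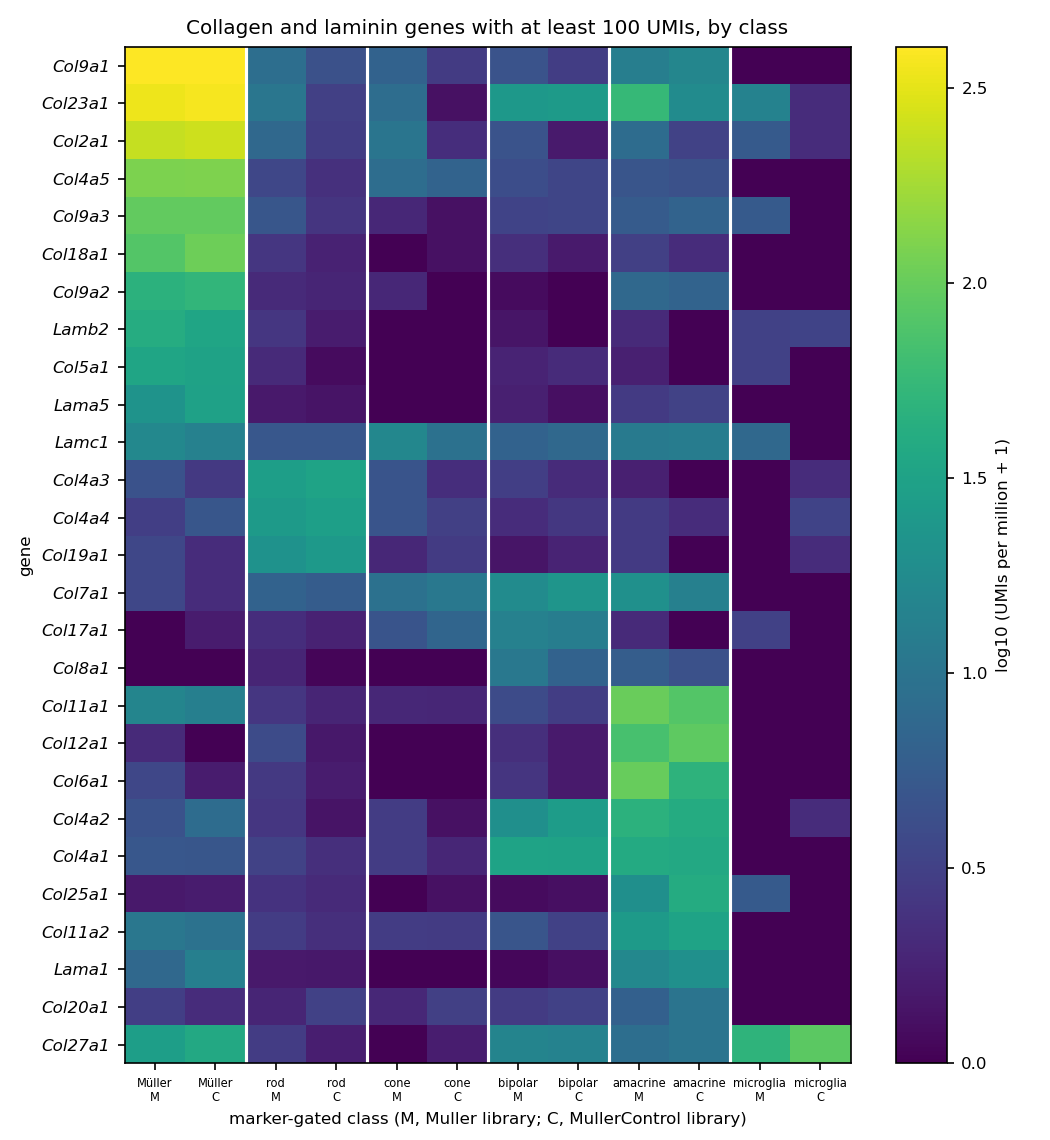
Colour gives log10 of CPM plus 1 for the 27 members with at least 100 UMIs (rows) in the 6 classes of each library (columns; M, the Muller library; C, the MullerControl library). Col9a1, Col23a1 and Col2a1 are brightest in Müller columns, Col4a3, Col4a4 and Col19a1 in rod columns, Col6a1, Col11a1 and Col12a1 in amacrine columns, and Col27a1 in microglial columns.

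Most members were highest in the same class in both libraries. Of the 40 members that reached 20 UMIs in the 6 classes over the libraries together, 29 were highest in the same class in both libraries and at least 1.5-fold above the next class in both, against 32.6% of the 15333 genes measured that way. The leading class was Müller for 13 members (7.68% of all genes), amacrine for 10 (8.6%), rod for 3 (2.15%), microglia for 2 (8.9%), bipolar for 1 (2.76%) and cone for 0 (2.55%). A further 6 members led in the same class in both libraries by a smaller margin in at least 1 of them, and 5 led in different classes. Folds over the next class, here and below, had 1 count added to each class sum. Where the next class had few or no UMIs, the added count shapes the fold. The markers that set the classes hold no collagen or laminin gene, so these levels did not enter the gate.

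The chains of the vitreous-type fibril were split between Müller and amacrine cells. Col9a1, the first of the chains of type IX collagen, had more UMIs than any other member in Müller barcodes, 789 and 703, or 403 (375 to 432) and 399 (370 to 430) CPM, 33.0-fold and 25.1-fold above the next class. Col9a3 stood at 95.5 (82.3 to 110) and 94.8 (81 to 110) CPM and Col9a2 at 46.0 (37.0 to 56.5) and 50.5 (40.6 to 62.2), so all type IX chains led in Müller barcodes in both libraries. Col2a1, the chain of type II collagen, the main fibril of cartilage and vitreous, was at 239 (218 to 262) and 253 (230 to 277) CPM there, 23.2-fold and 74.2-fold above the next class. At 1000 UMIs per barcode Col9a1 was seen in 31.2% (27.6 to 34.9) and 29.7% (25.5 to 34.2) of Müller barcodes against 0.724% and 0.250% of rods, and Col2a1 in 22.7% and 21.4% against 0.597% and 0.125%. Within the gene body Col9a3 is overlapped on the opposite strand by Tcfl5, which had 0 and 1 UMIs in Müller barcodes.

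The type XI chains, which lie inside type II fibrils and set their diameter, led elsewhere. Col11a1 was at 100.6 (89.3 to 113) and 79.6 (62.1 to 100.6) CPM in amacrine barcodes, 6.82-fold and 6.18-fold above the next class, and at 14.3 (9.50 to 20.7) and 12.5 (7.83 to 18.9) CPM in Müller barcodes. Col11a2 was at 25.2 (19.7 to 31.7) and 31.8 (21.2 to 46.0) CPM in amacrine and at 9.70 and 8.52 CPM in Müller barcodes. Type V collagen, the related fibril-nucleating type, was divided as well: Col5a1 led in Müller barcodes with 33.2 (25.6 to 42.3) and 30.7 (23 to 40.0) CPM, and Col5a2 led in amacrine barcodes with 18 and 20 UMIs, or 6.29 (3.73 to 9.94) and 22.7 (13.9 to 35.1) CPM. Of the other fibrillar genes, Col1a1 also led in amacrine barcodes, with 10 and 17 UMIs, while Col1a2, its partner in type I collagen, was highest in bipolar barcodes with 22 and 6 UMIs and a lead of only 1.06-fold in the Muller library. Col5a3 had 20 to 99 UMIs and no shared leading class, and Col3a1 had 2 UMIs in all.

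Col27a1, a fibrillar collagen best known from cartilage, was high in several classes, with microglia first. It was at 48.6 (30.5 to 73.6) and 89.0 (70.2 to 111) CPM in microglia, at 27.6 (20.7 to 36) and 36.3 (28.0 to 46.4) in Müller barcodes and at 14.1 (11.9 to 16.7) and 13.4 (9.85 to 17.7) in bipolar cells, against 1.90 CPM in rods of the Muller library, with 11 UMIs. The rod bipolar sub-class described below was at 41.9 (34.3 to 50.6) and 38.9 (26.8 to 54.7) CPM. Its interval overlaps the microglial one in the Muller library and lies below it in the MullerControl library. In the microglia of the Muller library 1 barcode held 27.3% of the 22 Col27a1 UMIs. Thinned to 1000 UMIs, 6.42% (2.62 to 12.8) and 11.1% (6.72 to 17) of microglial barcodes had a Col27a1 UMI, against 0.17% and 0.0417% of rods.

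The fibril-associated collagens other than type IX were highest in amacrine, rod or Müller barcodes where more than a few UMIs were read. Col12a1, a chain of tendon and other dense tissue, was at 68.8 (59.5 to 79.1) and 89.8 (71.1 to 112) CPM in amacrine barcodes, 22.2-fold and 78.7-fold above the next class. In the MullerControl library the next class had no Col12a1 UMI, so the added count sets that fold. Col19a1, known from basement membrane zones, was at 20.4 (16.9 to 24.4) and 24.5 (21.6 to 27.7) CPM in rods, 6.72-fold and 10.6-fold above the next class. Col20a1 led in amacrine barcodes with 5.24 (2.93 to 8.64) and 9.10 (3.93 to 17.9) CPM, a level only 2.19-fold above the next class in the Muller library. Col22a1, known from tissue junctions, had 25 and 40 UMIs in Müller barcodes, or 12.8 (8.26 to 18.8) and 22.7 (16.2 to 30.9) CPM, and led there. Col16a1 was highest in Müller barcodes by less than the threshold, and Col14a1 had 4 UMIs.

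The 6 type IV genes lie in pairs, head to head, and each pair was read in a different class. The windows below, from 250 bases before to 50 after a start, are shown because the members of each pair start within them or close to them. They are RefSeq sequences of build GRCm38.p6, written 5′ to 3′ on the strand of the named gene. Col4a4 and Col4a3 start 72 bases apart on chromosome 1 (82586849 on the minus strand and 82586921 on the plus strand), and the capitals in the Col4a4 window (chr1:82586800-82587099, minus strand) run from the Col4a3 start to the Col4a4 start. Col4a1 (minus strand) and Col4a2 (plus strand) start on chromosome 8 at 11312826 and 11312805, so that their first exons overlap, and the capitals in the Col4a1 window (chr8:11312777-11313076, minus strand) mark the overlap. The starts given are those of GENCODE, and the RefSeq start behind the Col4a5 window lies further downstream. Col4a6 and Col4a5 start 1309 bases apart on the X chromosome, at 141474076 and 141475385. In their windows (chrX:141474027-141474326, minus strand, and chrX:141475169-141475468, plus strand) capitals mark the motifs CCAAT and GGGCGG on either strand.
Col4a4: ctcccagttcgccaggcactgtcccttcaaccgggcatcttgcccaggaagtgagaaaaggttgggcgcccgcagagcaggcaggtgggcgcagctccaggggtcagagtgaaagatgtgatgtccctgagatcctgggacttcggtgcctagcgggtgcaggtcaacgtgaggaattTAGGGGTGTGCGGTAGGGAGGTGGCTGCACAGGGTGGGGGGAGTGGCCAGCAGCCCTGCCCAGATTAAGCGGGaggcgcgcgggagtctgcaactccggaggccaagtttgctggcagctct
Col4a1: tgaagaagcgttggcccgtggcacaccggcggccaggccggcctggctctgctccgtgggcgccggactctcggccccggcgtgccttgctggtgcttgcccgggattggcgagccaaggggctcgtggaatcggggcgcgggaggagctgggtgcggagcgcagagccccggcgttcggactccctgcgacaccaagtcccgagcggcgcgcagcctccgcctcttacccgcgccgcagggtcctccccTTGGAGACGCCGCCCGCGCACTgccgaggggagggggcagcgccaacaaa
Col4a6: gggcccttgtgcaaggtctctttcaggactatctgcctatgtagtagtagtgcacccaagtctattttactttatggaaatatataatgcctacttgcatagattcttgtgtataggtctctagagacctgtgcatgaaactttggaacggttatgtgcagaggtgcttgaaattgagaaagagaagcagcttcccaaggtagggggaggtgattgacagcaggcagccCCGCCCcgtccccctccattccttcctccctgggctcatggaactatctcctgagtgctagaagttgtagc
Col4a5: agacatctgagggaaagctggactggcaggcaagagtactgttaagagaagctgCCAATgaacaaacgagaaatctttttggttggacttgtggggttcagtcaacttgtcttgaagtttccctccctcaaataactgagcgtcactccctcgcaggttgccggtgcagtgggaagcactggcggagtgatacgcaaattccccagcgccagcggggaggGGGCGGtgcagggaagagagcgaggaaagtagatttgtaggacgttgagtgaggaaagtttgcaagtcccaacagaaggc

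GGGCGG or its reverse complement was found in 59.1% of the 44 windows of the 40 members that RefSeq's table holds, against 35.7% of all 32851 windows. Their median GC content was 59.5% against 52.7%. CCAAT, in either orientation, was in 31.8% against 37.4%, and TATAAA in 11.4% against 13.6%. The photoreceptor-type motif TAATCC was in 2.27% against 7.06%, and the SOX-type motifs ACAAAG and ACAATG were in 11.4% against 18.7% and in 2.27% against 12.6%. A match is a run of letters and no evidence of binding.

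Col4a3 and Col4a4, whose chains form the mature network of the kidney filter together with that of Col4a5, were read in rods. Col4a3 had 163 and 334 UMIs there, or 28.2 (24 to 32.9) and 31.6 (28.3 to 35.2) CPM, 6.05-fold and 13.7-fold above the next class. Col4a4 had 148 and 301 UMIs, or 25.6 (21.6 to 30.1) and 28.5 (25.4 to 31.9) CPM, 5.49-fold and 6.29-fold above the next class. Each gene's rod level was alike in the 2 libraries. Detection per barcode was sparse: of 2347 and 4800 rod barcodes thinned to 1000 UMIs, 62 and 145 had Col4a3, 51 and 111 had Col4a4, and 0 and 4 had both. That is too few to show whether single rods carry both. C430014B12Rik, which overlaps Col4a3 on the opposite strand, had 4 and 7 UMIs in rods.

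Col4a5 and Col4a6 were read in Müller glia. Col4a5 was at 122 (107 to 138) and 125 (109 to 143) CPM, 14.5-fold and 20.9-fold above the next class, and Col4a6 at 11.2 (7.04 to 17) and 15.3 (10.1 to 22.3), from 22 and 27 UMIs. Rods held 2.59 and 1.33 CPM of Col4a5, and Müller barcodes held 3.57 and 1.70 CPM of Col4a3 and 2.04 and 3.97 CPM of Col4a4. So the Col4a3 and Col4a4 levels and the Col4a5 level peaked in different classes.

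Col4a1 and Col4a2, the chains of nearly every basement membrane, were read in amacrine and bipolar cells, with Col4a2 2.46-fold and 1.49-fold higher in amacrine than in bipolar barcodes and overlapping intervals for Col4a1. Col4a1 was at 38.4 (31.6 to 46.3) and 36.4 (24.9 to 51.4) CPM in amacrine and 31.2 (27.8 to 34.9) and 30.6 (25.2 to 36.9) in bipolar barcodes. Col4a2 was at 46.8 (39.2 to 55.4) and 38.7 (26.8 to 54.0) CPM in amacrine and 19 (16.4 to 22) and 26.5 (21.4 to 32.3) in bipolar barcodes. Müller barcodes had 4.09 and 3.97 CPM of Col4a1, from 8 and 7 UMIs. The sources used here do not say whether counting used the strand, and exons of Col4a1 and Col4a2 overlap on opposite strands, so reads in that overlap could not be assigned with certainty.

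**Figure D2:**
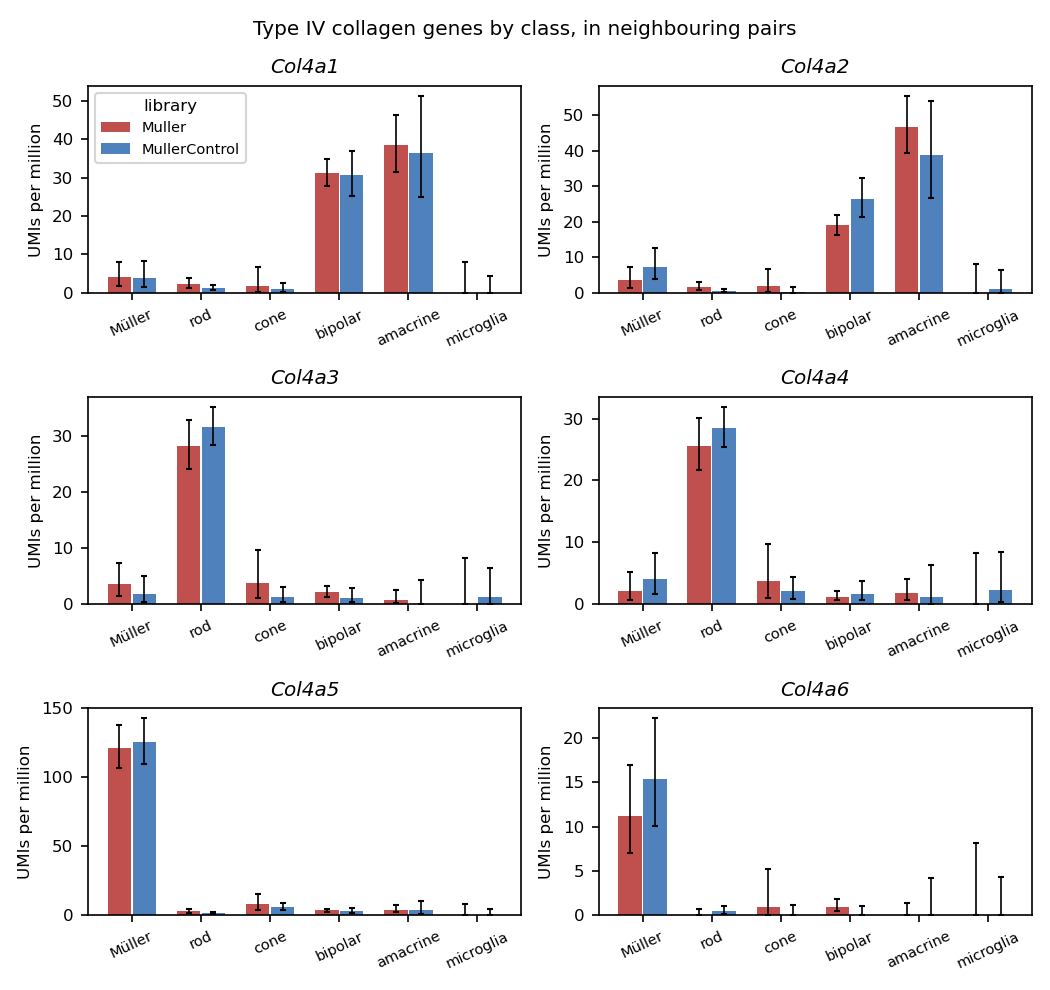
Bars give CPM of each type IV collagen gene in the 6 classes of the Muller and MullerControl libraries, with exact Poisson 95% intervals, and each row of panels is a pair of neighbouring genes. Col4a3 and Col4a4 stand highest in rods, Col4a5 and Col4a6 in Müller barcodes, and Col4a1 and Col4a2 in amacrine and bipolar barcodes.

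The multiplexins, basement membrane collagens whose ends release endostatin-type fragments, differed in class. Col18a1 was at 79.7 (67.7 to 93.2) and 107 (92.6 to 124) CPM in Müller barcodes, 32.8-fold and 47.4-fold above the next class. Col15a1 led in microglia with 9 and 15 UMIs, or 19.9 (9.10 to 37.8) and 17.3 (9.70 to 28.6) CPM.

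The laminin chains were spread over Müller, amacrine and other barcodes. Lamb2, the beta chain of synaptic laminins, was at 39.8 (31.5 to 49.7) and 32.9 (25 to 42.6) CPM in Müller barcodes, and Lama5, an alpha chain of adult basement membranes, at 20.9 (15 to 28.4) and 30.1 (22.5 to 39.4), and both led there. Lama2, the alpha chain of muscle, led there too with 17 and 11 UMIs. Lamc1, the gamma chain that nearly all laminins share, was spread over the classes, with 15.3 (10.3 to 21.9) and 13.1 (8.28 to 19.6) CPM in Müller, 15 (8.58 to 24.4) and 8.44 (5.61 to 12.2) in cone, 10.5 and 11.4 in amacrine, 5.60 and 6.68 in bipolar and 4.15 and 4.07 in rod barcodes. Lama1, the embryonic alpha chain, led in amacrine barcodes at 15.4 (11.2 to 20.6) and 19.3 (11.3 to 31.0) CPM, with 6.64 and 12.5 CPM in Müller barcodes. Lamb1 led in amacrine barcodes as well, but on 33 UMIs and, in the MullerControl library, on 1. Lama3 had too few UMIs in the 6 classes for a leading class, and Lamc3, Lama4 and Lamb3 had 16, 7 and 3 UMIs in all.

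Of the transmembrane collagens Col23a1 had the most UMIs. It was at 342 (317 to 369) and 374 (346 to 403) CPM in Müller barcodes and the next class was amacrine in the Muller library, at 55.2 (46.9 to 64.5), and bipolar in the MullerControl library, at 25.1 (20.1 to 30.8). Thinned, 29.0% (25.5 to 32.7) and 32.0% (27.7 to 36.5) of Müller barcodes had a Col23a1 UMI, against 0.895% and 0.146% of rods. Col17a1, the hemidesmosome collagen of skin, led in bipolar barcodes at 12.8 (10.7 to 15.3) and 11.7 (8.43 to 15.8) CPM, with cones next at 3.75 and 6.03. Col25a1, a neuronal collagen found in amyloid plaques, led in amacrine barcodes at 18.9 (14.2 to 24.6) and 38.7 (26.8 to 54.0) CPM. Col13a1, a collagen of the neuromuscular synapse, was highest in amacrine barcodes with 11 and 5 UMIs, by less than the threshold in the Muller library.

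Among the remaining families Col6a1, the first chain of the beaded filaments, was an amacrine gene at 99.9 (88.7 to 112) and 47.8 (34.4 to 64.6) CPM, 32.7-fold and 42.3-fold above the next class. The next class in the MullerControl library had no Col6a1 UMI, so the added count sets the fold there. Col6a2, which type VI collagen needs beside Col6a1, had only 15 and 0 UMIs in amacrine barcodes, and Col6a4, Col6a3, Col6a6 and Col6a5 had 9, 8, 6 and 1 UMIs in all. Col7a1, the anchoring-fibril collagen of skin, was at 17 (14.5 to 19.8) and 22 (17.4 to 27.4) CPM in bipolar and 19.2 (14.5 to 25) and 12.5 (6.24 to 22.4) in amacrine barcodes, which did not differ beyond their intervals in either library. Col8a1, a short-chain collagen of Descemet's membrane and vessel walls, was highest in bipolar barcodes, 10.1 (8.19 to 12.3) and 5.57 (3.40 to 8.60) CPM, with a lead under the threshold in the MullerControl library. Col26a1 was seen mainly in rods of the MullerControl library, with 51 UMIs against 10 in the Muller library. Col24a1 had 8 UMIs and Col8a2 had 4.

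Within the bipolar class the members split by type of bipolar cell. Barcodes with at least 2 of 8 rod bipolar markers and at least 2-fold more of them than of cone bipolar markers numbered 725 and 196, and the reverse rule gave 1543 and 467 cone bipolar barcodes. Col4a1 was at 78.7 (68.2 to 90.3) and 86.1 (67.5 to 108) CPM in rod bipolar barcodes against 9.13 (6.73 to 12.1) and 11.6 (7.16 to 17.7) in cone bipolar barcodes. Col27a1 was at 41.9 (34.3 to 50.6) and 38.9 (26.8 to 54.7) against 2.28 (1.18 to 3.99) and 1.65 (0.341 to 4.83) CPM. Col4a2 leaned the same way, with 34 (27.3 to 42.0) and 44.8 (31.7 to 61.5) against 11.6 (8.88 to 14.9) and 12.1 (7.59 to 18.3) CPM.

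Other bipolar members leaned towards cone bipolar barcodes. Col17a1 was at 14.8 (11.7 to 18.5) and 16.5 (11.1 to 23.6) CPM there against 3.52 (1.61 to 6.69) and 2.36 (0.286 to 8.52) in rod bipolar barcodes. Col8a1 had 74 and 14 UMIs in cone bipolar barcodes and 1 and 0 in rod bipolar barcodes. Col23a1 was at 24.7 (20.7 to 29.4) and 24.8 (18.1 to 33.2) against 12.5 (8.57 to 17.7) and 8.25 (3.32 to 17) CPM. For Col7a1 the cone bipolar level was higher in both libraries, 18.1 (14.6 to 22.1) and 28.6 (21.4 to 37.6) against 13.3 (9.21 to 18.6) and 9.43 (4.07 to 18.6) CPM, and the intervals overlapped in the Muller library.

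Amacrine barcodes split by transmitter marker in the same manner. Barcodes with Gad1 or Gad2, the enzymes that make GABA, and without Slc6a9, the glycine transporter, numbered 292 and only 18, and the reverse rule gave 323 and 131. In the Muller library Col6a1 was at 189 (163 to 218) CPM in Gad barcodes and 26.0 (17 to 38.1) in Slc6a9 barcodes, Col23a1 at 106 (86.5 to 128) and 6.99 (2.81 to 14.4), and Col11a1 at 162 (138 to 189) and 45 (32.8 to 60.2). Lamb1 had 26 UMIs in the Gad barcodes of that library and 0 in the Slc6a9 barcodes of both libraries. The MullerControl values for Col6a1, 213 (124 to 341) and 19.6 (8.97 to 37.2), and for Col23a1, 100.1 (43.2 to 197) and 4.36 (0.528 to 15.7), were ordered alike. For Col11a1 they were 25 (3.03 to 90.4) CPM, from 2 UMIs in Gad barcodes, and 89.3 (64.1 to 121). Those intervals overlap, so the order of Col11a1 is not settled in that library.

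Col12a1, Col25a1, Col5a2, Lama1 and Col11a2 leaned towards Slc6a9 barcodes in the Muller library. Col12a1 was at 77.9 (61.6 to 97.3) against 6.98 (2.81 to 14.4) CPM, Col25a1 at 33.0 (22.7 to 46.3) against 0.997 (0.0252 to 5.55), and Lama1 at 25 (16.2 to 36.9) against 4.98 (1.62 to 11.6). Col5a2 had 17 UMIs in Slc6a9 barcodes and 0 in Gad barcodes, and Col11a2 38 and 13. In the MullerControl library the intervals of Col12a1, Col25a1, Lama1, Col5a2 and Col11a2 overlapped between the sub-classes, at 79929 UMIs in all for Gad barcodes, which is too few to order them.

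**Figure D3:**
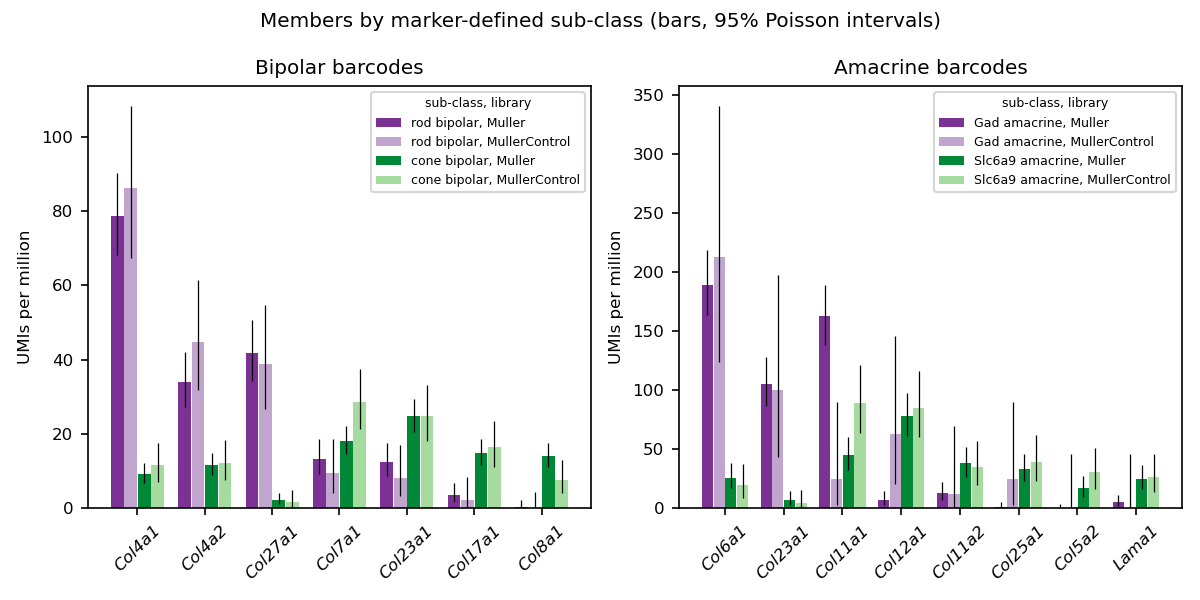
Bars give CPM in rod and cone bipolar barcodes (left) and in Gad and Slc6a9 amacrine barcodes (right) of both libraries, with exact Poisson 95% intervals. Col4a1, Col4a2 and Col27a1 stand higher in rod bipolar barcodes and Col17a1 and Col8a1 in cone bipolar barcodes, while the 18 Gad barcodes of the MullerControl library have wide intervals.

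Between the libraries, the Müller level of the members was close to the same. The summed log2 ratio, Muller over MullerControl with 1 count added, was -0.08 (-0.15 to -0.01), and the median over the 19 members with at least 20 UMIs was -0.08 against -0.04 over 11024 genes. No member of the 19 was at least 1.5-fold higher, where 6.25% of all genes were, and 3 were at least 1.5-fold lower, where 5.98% were. Those were Col22a1, at -0.81 (-1.52 to -0.10), Lama1, at -0.87 (-1.83 to 0.09), and Col4a2, at -0.96 (-2.21 to 0.29), and for Lama1 and Col4a2 the interval reaches past 0. Lama1 was at -0.49 (-1.37 to 0.39) under a looser gate, which ends its call, and Col4a2 fell under 20 UMIs, and so was not measured, under a stricter gate and without the highest Scrublet scores (a score for barcodes that may hold more than 1 cell). Col18a1 was lower by less, at -0.43 (-0.73 to -0.12). For the 5 genes with the most Müller UMIs the log2 ratio was 0.01 (-0.13 to 0.16) for Col9a1, -0.13 (-0.28 to 0.03) for Col23a1, -0.08 (-0.27 to 0.11) for Col2a1, -0.05 (-0.31 to 0.22) for Col4a5 and 0.01 (-0.29 to 0.31) for Col9a3. All of these intervals include 0, for the Müller class taken as a whole.

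**Figure D4:**
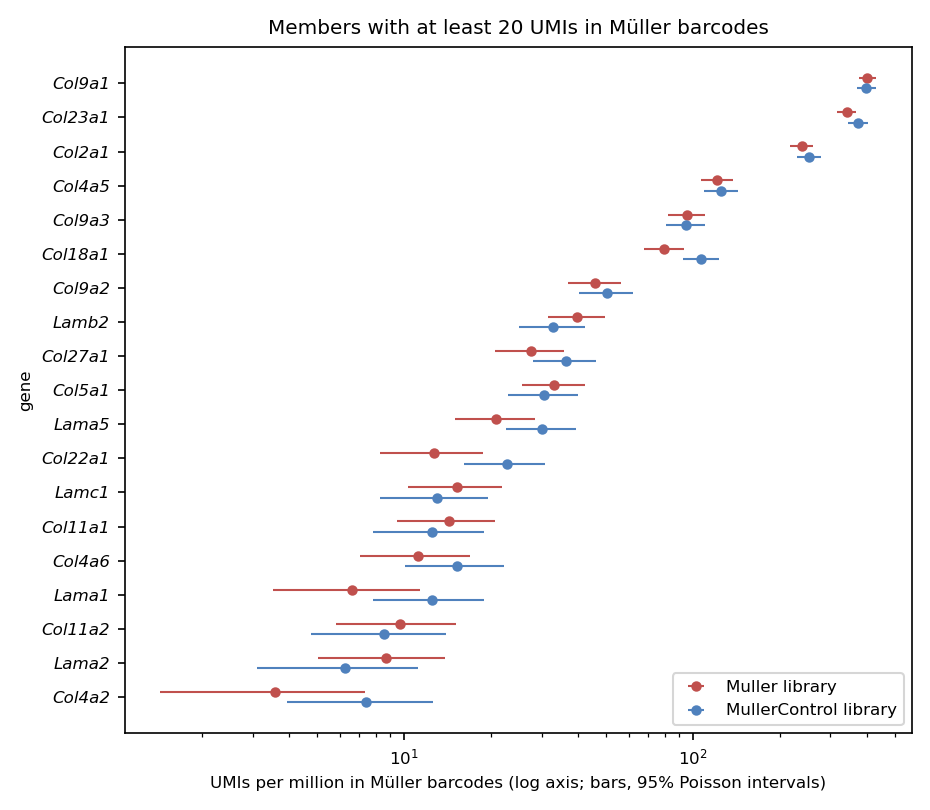
Points give CPM in Müller barcodes of the Muller and MullerControl libraries for the 19 members with at least 20 UMIs, on a log axis, with exact Poisson 95% intervals. The points of the 2 libraries lie close together for Col9a1, Col4a5 and Col9a3 and apart for Col22a1 and Col18a1.

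In other classes more members differed between the libraries. In rods 8 of 15 members were at least 1.5-fold higher in the Muller library, against 16.8% of genes, and 2 were lower, against 2.31%. All 8 had another leading class, Müller for Col23a1, Col2a1, Col9a1, Col9a3 and Col4a5 and amacrine for Col12a1, Col11a2 and Col4a1. Col23a1 was at 9.51 against 2.08 CPM, with a log2 ratio of 2.15 (1.45 to 2.85), Col2a1 at 6.57 against 1.99, at 1.70 (0.94 to 2.45), and Col9a1 at 7.78 against 3.41, at 1.18 (0.56 to 1.81). The 12 Müller markers, at 0.0738% and 0.0274% of rod UMIs, and the 12 amacrine markers, at 0.0298% and 0.00536%, moved with them, and their part in the result was not tested. The rod genes themselves were level, with log2 ratios of -0.16 (-0.43 to 0.11) for Col4a3, -0.15 (-0.43 to 0.13) for Col4a4 and -0.26 (-0.57 to 0.05) for Col19a1. The lower members were Col26a1, at -1.37 (-2.31 to -0.43), and Col20a1, at -1.13 (-2.42 to 0.16).

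In amacrine barcodes 4 of 19 members were at least 1.5-fold higher in the Muller library, against 8.18% of genes, and 4 lower, against 12.6%. The higher members were Col6a1, at 1.04 (0.57 to 1.5), Col23a1, at 1.61 (0.87 to 2.35), Lamb1, at 2.38 (0.33 to 4.44), and Col2a1, at 1.17 (-0.57 to 2.91). Those lower were Col25a1, at -1.05 (-1.66 to -0.44), Col5a2, at -1.85 (-2.74 to -0.95), Col1a1, at -2.41 (-3.50 to -1.33), and Col20a1, at -0.87 (-2.05 to 0.31). The make-up of the class moved with these ratios, with 292 Gad and 323 Slc6a9 barcodes in the Muller library against 18 and 131 in the MullerControl library. Within Gad barcodes Col6a1 was at 189 and 213 CPM and Col23a1 at 106 and 100.1, with only 17 and 8 UMIs in the 18 control barcodes. Within Slc6a9 barcodes Col25a1 was at 33 and 39.2 CPM, Col5a2 at 17 (9.90 to 27.2) and 30.5 (16.7 to 51.2), and Col1a1 at 6.99 (2.81 to 14.4) and 32.7 (18.3 to 53.9), so that Col1a1 was lower in the Muller library within this sub-class as well. The part of the make-up in the class ratios was not tested.

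In bipolar barcodes 5 of 17 members were at least 1.5-fold higher, against 4.06% of genes, and 0 were lower, against 7.66%. They were Col2a1, Col8a1, Col9a1, Col11a2 and Col4a3, of which Col2a1, at 2.17 (0.47 to 3.87), and Col8a1, at 0.80 (0.12 to 1.48), had intervals above 0. Müller markers made up 0.0417% and 0.024% of bipolar UMIs, and their part was not tested. Col4a1 was level there, at 0.02 (-0.29 to 0.33), and Col4a2 slightly lower, at -0.48 (-0.84 to -0.13). In cones only 4 members had 20 UMIs, and Lamc1, at 0.87 (0.00 to 1.73), was the 1 that was higher, against 7.01% of genes, while 0 were lower, against 7.47%. Of the 2 members measured in microglia Col27a1 was lower, at -0.83 (-1.5 to -0.16), against 7.2% of genes, 0 were higher, against 13.7%, and Col15a1 was at 0.26 (-0.88 to 1.40).

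Müller barcodes were then divided by the share of Malat1, a nuclear non-coding RNA, among their UMIs, into those under 2%, from 2% to 10%, and of 10% and over. The groups held 240, 78 and 577 barcodes of the Muller library and 214, 94 and 303 of the MullerControl library, and levels were taken as CPM with Malat1 left out of the total. Summed member levels were 340 (265 to 431), 1464 (1291 to 1654) and 2166 (2086 to 2249) CPM in the Muller library and 520 (427 to 626), 2039 (1877 to 2211) and 2123 (2036 to 2213) in the MullerControl library. Malat1-rich over Malat1-poor barcodes, the members were 6.28-fold and 4.05-fold higher in sum, at log2 ratios of 2.65 (2.31 to 2.99) and 2.02 (1.74 to 2.29), where the median gene stood at 0.22 and 0.44. The difference was nearly all between the poorest group and the others in the MullerControl library.

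With 1 count added, 15 of 15 measured members were at least 1.5-fold higher in the Malat1-rich barcodes of the Muller library, against 37.7% of genes, and 12 of 14 in those of the MullerControl library, against 44.7%. Of these, 7 and 2 had no UMI in the poor group and were measured through the rich group alone, which fixes their direction, so that these counts only describe the members. With 3 counts in place of those zeros, 11 and 12 members were past 1.5-fold, and Lamc1, Col11a1, Col22a1 and Col4a6 were under it in the Muller library. Of the members with a UMI in the poor group, 8 of 8 and 10 of 12 were at least 1.5-fold higher. The shares of genes above were taken with 1 count added and with zeros included. The counts with zeros at 3 counts or left out thus have no like share beside them and only describe the members. With 1 count added, no member was at least 1.5-fold lower in either library, against 20.5% and 15.7% of genes. The median member log2 ratio was 2.16 and 2.01, and 1.84 and 2.03 with the zeros at 3 counts. In the MullerControl library 2 laminins were not past the threshold: Lamb2 was at 34.3 (24 to 47.5) CPM in Malat1-rich and 37.4 (16.2 to 73.8) in Malat1-poor barcodes there, and Lamc1 at 16.2 (9.44 to 25.9) and 14.0 (2.90 to 41.0).

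Col4a5 had 0 and 1 UMIs in Malat1-poor barcodes. Malat1-rich barcodes held 177 (154 to 201) and 162 (139 to 188) CPM of it, and Malat1-poor barcodes held 0 of 202818 UMIs and, in the MullerControl library, 1 UMI, or 4.68 (0.118 to 26.1) CPM, which makes the Malat1-rich level of the Muller library at least 11.9-fold higher with 3 counts in the poor group. Col2a1 was at 341 (309 to 374) against 14.8 (3.05 to 43.2) CPM and at 326 (292 to 362) against 70.2 (39.3 to 116). Col9a1 was at 553 (513 to 596) against 78.9 (45.1 to 128) and at 537 (494 to 584) against 79.6 (46.3 to 127), and thus alike in the 2 libraries. Col23a1 differed least of these 4 genes, at 460 (423 to 498) against 128 (83.7 to 188) and 447 (407 to 489) against 178 (126 to 244).

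**Figure D5:**
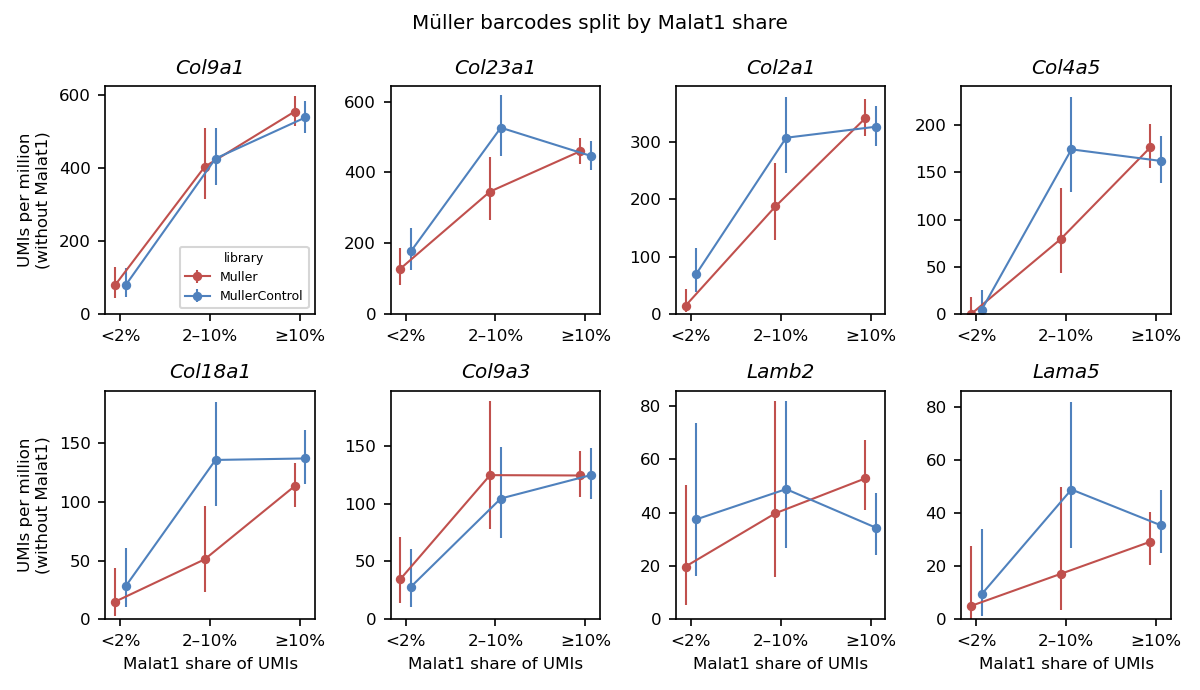
Points give CPM without Malat1 for 8 members in Müller barcodes with under 2%, 2% to 10% and 10% or more Malat1, in the Muller and MullerControl libraries, with exact Poisson 95% intervals. Levels are lowest in the poorest group for each gene except Lamb2 in the MullerControl library, and Col4a5 is close to 0 there.

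Several other measures moved with the Malat1 share, and their part in the result was not tested. Median UMIs per barcode were 727, 1004 and 2298 from poor to rich in the Muller library and 890, 2258 and 4445 in the MullerControl library, and the median mitochondrial share was 2.64%, 2.04% and 0.756% and 4.93%, 2.25% and 0.643%. Rod markers were at 10985, 4290 and 5234 CPM and at 7563, 4315 and 2965, while the Müller markers were at 22197, 24316 and 24259 and at 21492, 26582 and 28837. Gene length moved too: genes other than the members under 10 kb long had a median log2 ratio of -0.32 and -0.13, and those of 100 kb and over 0.71 and 0.84. Compared between libraries within a group, the summed log2 ratio was -0.60 (-1.03 to -0.17) in the poor, -0.47 (-0.69 to -0.26) in the middle and 0.03 (-0.05 to 0.11) in the rich barcodes, so that the libraries were level in sum where Malat1 was high. In the middle group Col18a1 was at -1.30 (-2.30 to -0.30), Col23a1 at -0.59 (-1.02 to -0.16), Col2a1 at -0.69 (-1.26 to -0.12) and Col4a5 at -1.06 (-1.89 to -0.23). Col9a1, at -0.07 (-0.49 to 0.35), and Col9a3, at 0.27 (-0.51 to 1.05), had intervals that include 0 there. Among the members measured in the rich group only Lamb2, at 0.60 (0.03 to 1.18), had an interval that leaves out 0.

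The other genes of matrix assembly were compared between the libraries in Müller barcodes, where 6.25% of all genes were higher and 5.98% lower. Of 26 enzymes and chaperones of collagen processing 19 were measured, and 1 was higher by at least 1.5-fold, 2 were lower and the median log2 ratio was -0.15. Serpinh1, the collagen chaperone of the endoplasmic reticulum, was at 62.8 and 82.3 CPM, at -0.39 (-0.73 to -0.04), and Pcolce2, which enhances procollagen cleavage, at 94.5 and 113, at -0.26 (-0.55 to 0.03). Plod1, a lysyl hydroxylase, and Colgalt1, which adds galactose to collagen, were at -0.15 (-0.64 to 0.33) and -0.24 (-0.79 to 0.32).

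Of 23 receptors and their partners 12 were measured, 1 higher and 1 lower, with a median of -0.12. Ddr1, a collagen-binding receptor kinase, was at 251 and 307 CPM, at -0.29 (-0.47 to -0.12), Dag1, the dystroglycan that binds laminin, at 122 and 137, at -0.18 (-0.43 to 0.08), and Dtna, a dystrobrevin, at -0.22 (-0.46 to 0.03). The higher gene was Sv2a, a synaptic vesicle protein whose leading class was amacrine, at 0.61 (0.13 to 1.09).

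Of 26 other matrix genes 12 were measured, 3 higher and 0 lower, with a median of 0.38. Vtn, vitronectin, was at 98.1 and 36.9 CPM, at 1.40 (0.99 to 1.80), and its leading class was rod in both libraries. Sparcl1 and Spock2, the other genes that were higher, led in amacrine and in bipolar barcodes. Sparc, a collagen-binding glycoprotein, was at 1591 and 1837 CPM, at -0.21 (-0.28 to -0.14), Ntn4, a laminin-binding netrin, at -0.23 (-0.56 to 0.11), and Smoc1 at -0.17 (-0.67 to 0.32). Rod markers in Müller barcodes of equal Malat1 share were higher in the Muller library in the poor and the rich group, as given above, and their part in the Vtn ratio was not tested. Of 20 proteases and inhibitors 12 were measured, 0 higher and 2 lower, with a median of -0.16. Adamts1 was at 126 and 161 CPM, at -0.36 (-0.61 to -0.11), and Timp3, the inhibitor held in Bruch's membrane, at 438 and 494, at -0.17 (-0.31 to -0.04). Timp2 was at -0.15 (-0.31 to 0.00) and Plat at -0.13 (-0.62 to 0.36).

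Cells of vessels, meninges and pigment epithelium make basement membrane and fibrils as well, so their markers were read in the Müller barcodes. The 10 fibroblast and meningeal markers had 23 and 14 UMIs there, with Lum, Igfbp6, Mgp, Pi16 and Clec3b at 0 in both libraries, and the 12 pigment epithelium markers had 101 and 78, with Rpe65, Lrat, Tyrp1, Dct and Tyr at 0. The 12 pericyte and smooth muscle markers had 425 and 335 UMIs, or 217 and 190 CPM; Abcc9, Acta2 and Higd1b were at 0 in both libraries, Vtn, the gene given above as higher, had 192 of the UMIs in the Muller library, and Pdgfrb had 176 in the MullerControl library. The 12 endothelial markers had 3628 and 3782 UMIs, or 1853 and 2147 CPM. Kdr had 2376 and 2251 of them, the other endothelial markers together 1252 and 1531, and Cdh5, Tie1, Ly6c1 and Slco1a4 were at 0 in both libraries. The part of these transcripts in the member levels was not tested.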

How the data were processed

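Per the file headers, the deposited tables are UMI counts per gene and barcode written by Cell Ranger 4.0.0, with no normalization. Seurat 4.0.5 and the builds mm10 and GRCh38 are named, with no role, per the submitters' processing notes. No deposited barcode held under 500 UMIs, and 429 and 905 barcodes failed the filter on genes and mitochondrial share. Values of 1 member are not reported here.

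The members, marker lists and gene lists were chosen with earlier results of these data known, and the scoring rule of the gate was set after the files were seen. The typical share of a marker list was its median share of UMIs over barcodes with at least 4 of its markers. Doublets were met only by the 2-fold lead of the gate; an alternative used Scrublet scores. Members were named with values from 100 UMIs upwards; values of rarer members, among them Col4a6, Col22a1, Col5a2, Col1a1, Lama2, Lamb1 and Col15a1, were added after they were seen. Sparcl1 and Spock2 were likewise named after their values were seen. From each gene list the 4 largest ratios with at least 100 UMIs in Müller barcodes were named.

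A gene was measured in a class with 20 UMIs over both libraries, and a 1.5-fold difference was counted. Log2 ratios and folds over the next class had 1 count added to each sum. A count of 0 was given a floor of 3 counts per library, which the folds over the next class did not use. Shares have Clopper-Pearson and levels Poisson 95% intervals, which cover counting error alone. Coordinates are from GENCODE M21 (GRCm38), whose gene IDs match the tables. The software was scanpy 1.11.5, scipy 1.17.1, numpy 2.4.6, matplotlib 3.10.9, pandas 2.3.3 and Python 3.11.15, and the ratio code was tested on simulated data. Gate, filter, scaling, pseudocount, depth, Malat1 boundaries and doublets were varied.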

Additional observations from a re-analysis of the deposited data

Results flagged for a closer look

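Barcodes left out by the filter on genes and mitochondrial share entered no comparison, and Col27a1, the fibrillar collagen that was high in rod bipolar barcodes and microglia, stood out in those of the Muller library. It was at 96.5 CPM (68.6 to 132, exact Poisson 95% interval), from 39 UMIs in 30 of 429 barcodes, against 23.4 CPM (14.5 to 35.8), from 21 UMIs in 16 of 905 barcodes, in the control library. It was picked out as a level above that of the control library in barcodes not otherwise used. Bipolar markers were the leading list in 28 of those 30 and 14 of those 16 barcodes, and in 53.1% and 26.6% of all barcodes left out. Among the same barcodes Col4a1 was at 71.8 (48.1 to 103) and 37.9 (26.3 to 53.0) CPM. The part of the bipolar share in these levels was not tested.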

How the results depend on the processing

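Over 13 alternatives, 84 of 89 summary values stayed within their limits (a count within 1.5 times, a level or ratio within its interval), the 150 single-gene ratios in Müller barcodes stayed within their intervals, and 0 reversed. The members counted as lower still changed: Lama1 was at -0.49 and Col4a6 at -0.64 under a looser gate, Col4a6 was at -0.70 under a stricter one, and Lama5 at -0.69 (-1.30 to -0.08) without the highest Scrublet scores, against -0.87, -0.44 and -0.52 for Lama1, Col4a6 and Lama5. Col4a2 had under 20 UMIs under the stricter gate and without those barcodes. Under a stricter gate (4 markers, a 3-fold lead) 1 member, Lama2, was at least 1.5-fold higher in Müller barcodes, against 0, and with members from 10 UMIs upwards 1 was, Col4a3, on 7 and 3 UMIs. With members from 50 UMIs upwards 1 was lower, Col22a1, against 3, since fewer members are then measured. Thinned to 500 UMIs, which lowers the depth of each barcode and also keeps shallower ones, 46.4% and 47.0% of Müller barcodes had a member UMI against 77.8% and 73.2%. Removing 1130 and 866 barcodes with the highest Scrublet scores, or the single barcode with most member UMIs (19 and 25 UMIs), moved no count or sum past these limits. Within the limits, the members led by amacrine barcodes numbered 7 under the stricter gate and 11 under the looser one, against 10. They numbered 9 without the mitochondrial maximum and with either of these removals. No paired analysis was possible because both groups hold 1 library, each numbered replicate 1. Of Müller barcodes, 183 and 66 had a lead under 3-fold, and 329 and 90 barcodes with Müller as leading list stayed without a class. Depth limits the 12 members with a UMI but under 20 of them and sub-class values of the 18 Gad barcodes.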

Other observations

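A few barcodes carried markers of vessel walls, pigment epithelium, lens or horizontal cells, too few for a class. The 1 and 4 pericyte or smooth muscle barcodes held 7 and 45 member UMIs, or 4968 and 3956 CPM, in which Col4a1 had 2 and 10, Lama2 0 and 11, Lamc1 1 and 5, Col4a2 0 and 4 and Lama4 0 and 3 UMIs. The 1 and 6 endothelial barcodes held 0 and 8 member UMIs, with Lamb2 at 3 and Lama4 at 2. In the 3 and 4 pigment epithelium barcodes Col9a3 had 3 and 2 and Col8a1 3 and 1 UMIs, the 2 lens barcodes held 6 UMIs of Col4a1, and the 7 horizontal barcodes of the Muller library held 5 UMIs of Col27a1. Both UMIs of Col3a1 were in pericyte or smooth muscle barcodes.

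Barcodes without a class held 1739 and 620 member UMIs, or 545 (520 to 571) and 380 (350.5 to 411) CPM, a level between those of Müller and bipolar barcodes.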
